A study of Arabidopsis thaliana with 16 samples.

Results

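The genes described here are 35 probe sets of the Affymetrix ATH1 array, of 22746 that are not controls (0.154%). Their signal in the shoot apex of Arabidopsis thaliana was high in darkness and through the first 6 h of light and low from 24 h on. They were chosen by their apex signals alone, after values under 20 signal units had been raised to 20. The lowest of the 7 apex arrays from darkness to 6 h had to exceed the highest of the 3 apex arrays at 24, 48 and 72 h by at least 2-fold, which is 1 on the log2 scale. The array annotation matched 22 of them to 1 gene each, and the other 13 had no gene name and are given by probe set.

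Landsberg erecta seeds were stratified for 3 days at 4 °C, lit for 30 min at 100 µmol m-2 s-1 and kept for 3 days in darkness at 21 °C on medium without sucrose, before white light was given. Apex groups were dark (2 arrays), 1 h (2 arrays), 2 h (1 array), 6 h (2 arrays), 24 h (1 array), 48 h (1 array) and 72 h (1 array), and cotyledon groups were dark, 1 h and 6 h, with 2 arrays each. Each sample pooled the dissected tissue of about 1500 seedlings (72 h) to more than 4000 seedlings (dark) from several plates and experiments, with 1 tissue taken per seedling. Every group came from the same ecotype and had the same period of darkness, and only the hours of light and the tissue differed. Seedlings kept dark for longer were not sampled, so light cannot be told apart from age or time of day. Developing leaf primordia were also part of the apex samples at 48 and 72 h, per the labels. In such bulk tissue, fewer cells of a type and less RNA per cell cannot be told apart. Replicates are separate pools as far as the labels say, so p-values capture the variation among these arrays and nothing wider.

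A seedling that germinates in darkness lives on stored oil, which lies in oil bodies coated by oleosins, and it lengthens its hypocotyl while its cotyledons stay closed. Light stops this programme, the cotyledons turn green and feed the seedling, and the shoot apical meristem begins to form leaves. Reserve breakdown, auxin signalling and loosening of the cell wall all take part in this switch.

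The arrays differed in RNA quality. For the GAPDH control, the 3' signal divided by the 5' signal, which rises as RNA degrades, was 5.40 in apex 6 h replicate 2 and 0.83 to 1.85 on the other apex arrays, and it ranged from 1.73 to 4.72 on the cotyledon arrays. The mean correlation of log2 signals with arrays of other groups was lowest for apex 72 h (0.872) and apex dark replicate 2 (0.875). Without apex dark replicate 2 and apex 6 h replicate 2, 61 probe sets met the rule; the 35 are among them by construction, since leaving out earlier arrays can only widen the gap. Of the markers set for other cell types, the annotation used named few as the only gene of a probe set, and none for xylem or phloem. It left 8730 probe sets without a gene name, so the other markers may still be on the array. The meristem genes CLV3 and LAS summed to 16.6 to 74.7 signal units at 24 to 72 h and 45.1 to 69.2 at the earlier apex times. The leaf primordium genes YAB3 and YAB5 summed to 262 to 416 units at 24 to 72 h and 196 to 301 at the earlier times. For the stomatal genes SPCH, MUTE and FAMA the sums were 73.1 to 105 units at 24 to 72 h and 50.5 to 110 earlier. MUTE alone was at most 6.69 units late and ranged from 1.68 to 28.5 earlier. The root hair gene EXPA7 stayed at or below 12.4 units on all apex arrays. The part of cell makeup in the values of the 35 genes was not tested.

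Across the 35 genes the median apex signal was 240 and 249 units in darkness, 324 and 357 at 1 h, 306 at 2 h, 161 and 170 at 6 h, 35.1 at 24 h, 26.7 at 48 h and 22.7 at 72 h. The low level was thus already present on the 24 h array. Since these values chose the genes, they are a description and carry no test. The fold from the highest late signal up to the lowest earlier one was 9.11 at most and 2.02 at least, with a median of 2.53. It reached 4-fold for 7 genes. A drop of this kind without a minimum size was seen for 726 probe sets (3.19%). The opposite pattern of at least the same size, all late signals above all earlier ones, was met by 94 probe sets (0.413%).

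Levels before the drop spanned a wide range. The mean over the 7 earlier apex arrays lay under 100 units for 6 genes, between 100 and 500 for 17 and at 500 or more for 12, with extremes of 64.6 and 9823. The drop ended at different levels too. On the 24, 48 and 72 h arrays, 10, 12 and 14 of the 35 genes were at or below 20 units. Only 5 were so on all 3 of these arrays, and 15 were above 20 on all 3. For those 15 the signal was lower but still above that floor. Between the 72 h and 24 h arrays, with dim values raised to 20, 5 genes were lower by 1 or more on the log2 scale, 30 were within 1 and 0 were higher by that much.

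Among genes of lipid storage, AT2G47780 had the widest gap (9.11-fold). It encodes a member of the rubber elongation factor family, which in plants includes coat proteins of lipid droplets. In the apex its signal was 816 and 747 units in darkness, 980 and 1152 at 1 h, 536 at 2 h, 687 and 365 at 6 h, 40.1 at 24 h, 14.0 at 48 h and 26.4 at 72 h. In cotyledons it was 626 and 1519 in darkness, 1494 and 887 at 1 h and 359 and 507 at 6 h. Both 6 h arrays lay below both dark arrays in each tissue, yet the level in the lit apex was still far above that at 24 h.

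OLEO3 (AT5G51210) encodes an oleosin, a coat protein of oil bodies. Its apex signal was 1059 and 867 units in darkness, 1150 and 1758 at 1 h, 563 at 2 h, 119 and 440 at 6 h, 17.2 at 24 h, 16.3 at 48 h and 16.8 at 72 h. All 3 late values were under 20 units, so the gap to the lowest earlier array was at least 5.93-fold. In cotyledons OLEO3 gave 2114 and 1658 units in darkness, 1794 and 1533 at 1 h and 261 and 311 at 6 h. In darkness the apex lay below the cotyledons on both arrays, with a log2 difference of -0.97.

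Among hydrolases and proteases, AT4G29270, which encodes an acid phosphatase of the HAD family, had the second widest gap, 7.03-fold. Its apex signal was 366 and 249 units in darkness, 468 and 357 at 1 h, 338 at 2 h, 229 and 170 at 6 h, 18.1 at 24 h, 24.3 at 48 h and 2.24 at 72 h. AT5G19100, of the aspartyl protease family, had 314 and 342 units in darkness, 594 and 631 at 1 h, 306 at 2 h, 161 and 261 at 6 h, 38.1 at 24 h, 23.0 at 48 h and 9.46 at 72 h. AT5G19100 was higher on both 1 h arrays than on both dark arrays, while the 1 h and dark arrays of AT4G29270 overlapped. Both genes were lower on both 6 h arrays than on both dark ones.

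CP1 (AT4G36880), which encodes a papain-like cysteine protease, took another course. Its apex signal was 307 and 215 units in darkness, 667 and 450 at 1 h, 947 at 2 h, 593 and 753 at 6 h, 74.6 at 24 h, 76.7 at 48 h and 35.1 at 72 h. The lit apex arrays up to 6 h all lay above the dark ones before the low late values. Cotyledons ran the other way, with 657 and 1282 units in darkness, 230 and 344 at 1 h and 202 and 251 at 6 h.

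Other enzymes of this kind were AT4G29690, which encodes a protein of the alkaline phosphatase-like family, and AT3G48460, which encodes a lipase or esterase of the GDSL family. AT4G29690 had 57.5 and 95.6 units in the dark apex, 389 and 522 at 1 h, 169 at 2 h, 55.1 and 119 at 6 h, 14.9 at 24 h, 2.31 at 48 h and 0.862 at 72 h. It was high at 1 h on both arrays and back among its dark values at 6 h. AT3G48460 was highest at 2 h, with 888 units, against 322 and 299 in the dark apex.

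Cell wall and peptide genes included AT1G67750, which encodes a protein of the pectate lyase family that cuts pectin. Its apex signal was 574 and 426 units in darkness, 728 and 615 at 1 h, 791 at 2 h, 270 and 315 at 6 h, 80.5 at 24 h, 40.2 at 48 h and 6.03 at 72 h. Its late values spread widely, and the 72 h signal was at least 4.02-fold lower than that at 24 h. Cotyledons had little of it in darkness, 56.3 and 107 units, then 54.4 and 168 at 1 h and 156 and 220 at 6 h.

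RALFL32 (AT4G14010) encodes a RALF-like peptide, one of a family of secreted signals read by receptor kinases at the cell surface. Its apex signal was 783 and 863 units in darkness, 704 and 1106 at 1 h, 725 at 2 h, 559 and 1128 at 6 h, 203 at 24 h, 200.1 at 48 h and 82.3 at 72 h. In the apex the 1 h and 6 h arrays overlapped the dark ones, and the 2 h array lay below both dark arrays. In cotyledons the signal was 1253 and 1088 units in darkness, 531 and 395 at 1 h and 160 and 231 at 6 h, so the groups did not overlap there. AT3G24240, which encodes a receptor kinase with leucine-rich repeats, only just met the rule.

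**Figure D1:**
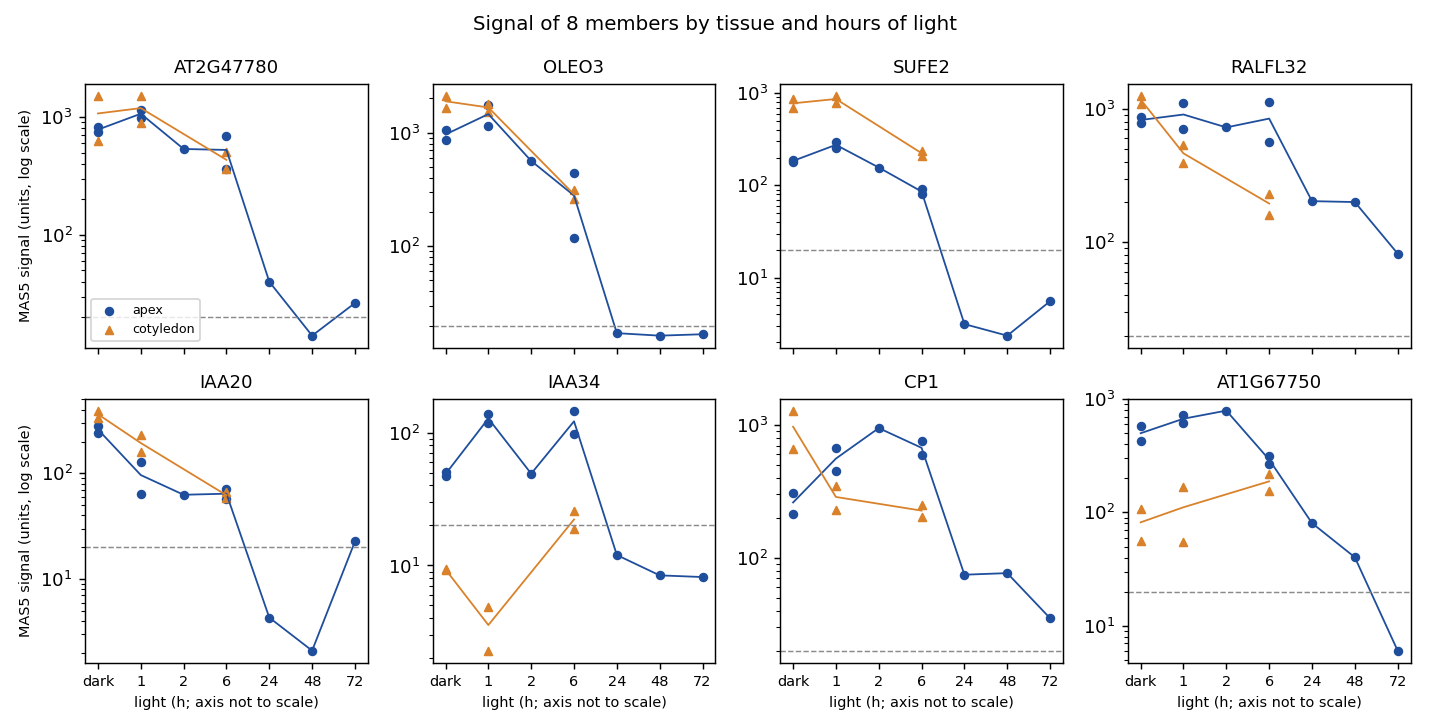
Signal of 8 genes by hours of light, in MAS5 signal units on log axes whose ranges differ between panels; the time axis is not to scale. Blue circles are apex arrays, orange triangles cotyledon arrays, lines join group means and the dashed line marks 20 units. AT1G67750 and IAA34 were brighter in the apex at the times both tissues were sampled, CP1 was brighter in cotyledons only in darkness, and cotyledons were not sampled after 6 h.

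The hormone genes included a pair of the Aux/IAA family, whose proteins hold back auxin-response factors. Both, IAA20 and IAA34, lack the degron through which auxin destroys most members of that family. IAA20 (AT2G46990) had 240 and 280 units in the dark apex, 63.8 and 129 at 1 h, 62.7 at 2 h, 57.7 and 70.8 at 6 h, 4.32 at 24 h, 2.11 at 48 h and 22.7 at 72 h. Its signal therefore came down in 2 steps, with the first step present at 1 h. In cotyledons IAA20 gave 392 and 333 units in darkness, 228 and 159 at 1 h and 66.2 and 58.0 at 6 h.

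IAA34 (AT1G15050) was dimmer and unlike IAA20. It had 47.2 and 50.3 units in the dark apex, 137 and 118 at 1 h, 49.1 at 2 h, 146 and 96.9 at 6 h, 12.0 at 24 h, 8.42 at 48 h and 8.18 at 72 h. In cotyledons it lay at or near the floor, with 9.41 and 9.25 units in darkness, 2.29 and 4.84 at 1 h and 25.6 and 18.8 at 6 h. The Aux/IAA symbols of the annotation covered 7 probe sets, of which these 2 met the rule. AT1G14120, which encodes a 2-oxoglutarate-dependent dioxygenase, had 55.7 and 88.9 units in the dark apex, 105 and 94.9 at 1 h, 154 at 2 h, 184 and 106 at 6 h, 26.4 at 24 h, 19.2 at 48 h and 6.56 at 72 h.

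Sulfur and redox genes formed a further group. SUFE2 (AT1G67810) encodes an activator of the cysteine desulfurase that supplies sulfur for iron-sulfur clusters. Its apex signal was 181 and 189 units in darkness, 253 and 299 at 1 h, 157 at 2 h, 91.0 and 80.9 at 6 h, 3.13 at 24 h, 2.35 at 48 h and 5.54 at 72 h. The late values were all below 20, and the gap was at least 4.04-fold. In cotyledons it was brighter throughout, at 691 and 866 units in darkness, 943 and 791 at 1 h and 237 and 211 at 6 h.

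STR18 (AT5G66170) encodes a sulfurtransferase with a rhodanese domain. It had 362 and 327 units in the dark apex, 324 and 382 at 1 h, 337 at 2 h, 102 and 167 at 6 h, 46.9 at 24 h, 35.5 at 48 h and 37.1 at 72 h. The level was steady to 2 h and lower on both 6 h arrays. GSTU26 (AT1G17190), a glutathione transferase of the tau class, ranged from 13.8 to 27.0 units on the late apex arrays and from 70.1 to 120 on the earlier ones. It was the only one of 11 tau-class probe sets to meet the rule, and the neighbouring family member GSTU25 showed a margin of -0.98 on the log2 scale and was above 20 units on the 72 h array alone of the 10 apex arrays, at 39.4.

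Transporters, regulators and enzymes of modification made up the remaining named genes. AT3G60070, of the major facilitator superfamily of transporters, ranged from 71.2 to 97.0 units on the late arrays and from 204 to 582 on the earlier ones. AT2G20780, a sugar or polyol transporter of the same superfamily, ranged from 18.7 to 20.5 units late and from 45.1 to 103 earlier. AT1G75710, which encodes a C2H2 zinc finger protein, had 35.8 to 68.3 units on the late arrays and 148 to 347 on the earlier ones. AT1G69526, of the methyltransferase superfamily, had 238 and 342 units in the dark apex, 179 and 218 at 1 h, 149 at 2 h, 49.6 and 151 at 6 h, 15.5 at 24 h, 7.41 at 48 h and 24.3 at 72 h. AT3G51410 ranged from 8.02 to 18.8 units late and from 53.7 to 151 earlier, and AT1G53035 from 33.2 to 35.6 late and from 87.5 to 239 earlier. No named pair of them were adjacent genes, and the closest on 1 chromosome were 8 protein-coding genes apart.

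Some unnamed probe sets stood out and are given here after their values were seen. The brightest of all was 266415_at, with 8787 and 15979 units in the dark apex, 8377 and 9062 at 1 h, 8060 at 2 h, 7167 and 11326 at 6 h, 1668 at 24 h, 1596 at 48 h and 1496 at 72 h. Its late signal was low only relative to its own earlier level. Probe set 248197_at had 1914 and 3267 units in the dark apex, 1958 and 2119 at 1 h, 1437 at 2 h, 65.3 and 148 at 6 h, 26.6 at 24 h, 9.12 at 48 h and 20.1 at 72 h. Most of its loss therefore lay between 2 and 6 h. Probe set 259391_s_at may read several transcripts, as its suffix marks, and ranged from 123 to 183 units late and from 511 to 730 earlier.

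At the edge of the rule, the 5 genes with the smallest margins were 250034_at (1.05), 248485_at (1.04), 265672_at (1.04), AT1G69526 (1.03) and AT3G24240 (1.02 on the log2 scale). The 5 nearest probe sets that missed it were 245325_at (0.99), 261285_at (0.97), AT1G01390 (0.96), 261825_at (0.94) and AT5G17700 (0.93). The group thus has no sharp border.

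Before 24 h the genes did not move as 1 block. At 1 h, 21 of the 35 had both lit apex arrays above both dark ones, 6 had both below and 8 overlapped. The median change of the 35 from darkness was 0.44 on the log2 scale after raising dim values to 20. It was 0 for all probe sets, but at least 35% of those lay under 20 units on each array and were raised to the same value. That median is therefore no like comparison, and the median of bright probe sets was not taken. Among the 7838 probe sets with at least 40 units on all 7 earlier apex arrays, 37.0% were above and 28.7% below in this way. At 2 h, on 1 array, 13 of the 35 lay above both dark arrays, 17 below and 5 between them, with a median of -0.03, against 44.7% above and 38.6% below among those probe sets. At 6 h, 8 lay above, 16 below and 11 overlapped, with a median of -0.31, against 34.5% above and 33.9% below. AT4G29690 stood highest at 1 h (2.60) and 265672_at lowest (-1.68).

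The provisional name of late-only loss therefore did not hold for all of the genes. Those with the lowest 6 h levels relative to darkness were 248197_at (-4.67), 265672_at (-2.96), OLEO3 (-2.07), IAA20 (-2.02), AT1G69526 (-1.72), 249469_at (-1.69) and STR18 (-1.40). CP1 (1.38) and IAA34 (1.29) were the highest at 6 h. The lowest earlier array was one of the 6 h arrays for 22 of the 35 genes, a dark array for 10, the 2 h array for 3 and a 1 h array for 0. Apex 6 h replicate 2, with its high GAPDH ratio, was the lowest for 9. The highest late array was that at 24 h for 21 genes, at 48 h for 7 and at 72 h for 7.

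The genes were also measured in cotyledons. In dark cotyledons, 33 of the 35 were above 20 units on both arrays, and 31 were so on all 6 cotyledon arrays, against 98.4% and 97.3% of the 7838 bright probe sets. In darkness, 15 had both apex arrays above both cotyledon arrays, 13 below and 7 overlapped, against 37.3% above and 33.1% below among the 7838 probe sets with at least 40 units on all earlier apex arrays. By group means of log2 signals, AT1G67750 was 6.36-fold higher in the dark apex than in dark cotyledons and 249469_at 5.69-fold. AT1G14120 was at least 3.52-fold higher in the dark apex, AT5G19100 2.66-fold, STR18 2.57-fold and IAA34 at least 2.44-fold. SUFE2 was 4.19-fold higher in dark cotyledons, CP1 3.57-fold, AT4G29690 3.20-fold and 261768_at 2.39-fold. These levels are not independent of the rule, which asked for a high dark apex signal, and were not tested.

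The cotyledon arrays had no part in choosing the genes. They allow a test of whether the same genes changed over the hours of light in another organ. All 35 genes passed the filter on dim signals. With limma and Benjamini-Hochberg adjustment over 18237 probe sets, 14 of the 35 (40%) were lower after 6 h of light than in darkness at an adjusted p under 0.05, 2 were higher and 19 were not called. Among all tested probe sets, 7.73% were called lower and 7.79% higher. Since bright probe sets are called more often, the share was also taken over the 7838 probe sets with at least 40 units on all 7 earlier apex arrays, where 12.7% were called lower and 11.9% higher. The median log2 change was -0.86 for the 35 genes and -0.08 for all probe sets. The GAPDH ratio was 2.79 and 1.73 at 6 h and 4.72 and 2.60 in the dark cotyledons, and its part in these calls was not tested.

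All 14 genes called lower lay below both dark arrays on both 6 h arrays. OLEO3 averaged 286 ± 35.4 units at 6 h and 1886 ± 322 in darkness (SD, n = 2 each), a limma change of -2.72 ± 0.44 (SE, adjusted p = 0.000873). RALFL32 averaged 195 ± 50.2 units at 6 h and 1171 ± 117 in darkness, a change of -2.61 ± 0.33 by limma (adjusted p = 0.000151). IAA20 averaged 62.1 ± 5.82 units at 6 h and 362 ± 42.0 in darkness, a change of -2.54 ± 0.35 by limma (adjusted p = 0.000292). In folds, OLEO3 was 6.57-fold, RALFL32 6.09-fold and IAA20 5.83-fold lower in the lit cotyledons.

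CP1 averaged 227 ± 34.8 units at 6 h and 970 ± 442 in the dark cotyledons, a change of -2.03 ± 0.34 by limma (adjusted p = 0.00105). SUFE2 averaged 224 ± 18.1 units at 6 h and 779 ± 123 in darkness, a change of -1.79 ± 0.25 by limma (adjusted p = 0.000268). Also lower were STR18 (-1.54 ± 0.29), AT3G60070 (-1.62 ± 0.24), AT1G69526 (-1.77 ± 0.43) and AT4G29690 (-1.71 ± 0.42). Their limma adjusted p-values ran up to 0.014, and those of AT4G29690 and AT1G69526 missed the threshold when dim signals were raised to 20 units (0.0572 and 0.0606). The AT4G29690 call was also lost without dark replicate 2 (0.137) or 6 h replicate 2 (0.136), and that of AT1G69526 without dark replicate 1 (0.0549), dark replicate 2 (0.0823) or 6 h replicate 2 (0.114), as limma adjusted p-values.

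The unnamed probe sets called lower at 6 h were 265672_at (-3.66 ± 0.28), 248197_at (-3.58 ± 0.35), 266415_at (-1.52 ± 0.41), 247210_at (-1.41 ± 0.23) and 265531_at. Probe set 265531_at gave 13.2 and 1.87 units at 6 h, against 82.1 and 62.8 in dark cotyledons, which is at least 3.59-fold lower with dim values raised to 20. Probe set 266415_at, the brightest, gave 3058 and 5002 units at 6 h and 10857 and 11575 in darkness. Its limma adjusted p was 0.020, and 0.0619 with dim values raised. Its call was also lost without dark replicate 1 (0.0889), dark replicate 2 (0.0979) or 6 h replicate 1 (0.178).

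The genes called higher were 263134_at and AT1G14120. Probe set 263134_at gave 508 and 603 units in cotyledons at 6 h, against 143 and 136 in darkness, a limma change of 1.99 ± 0.31 (adjusted p = 0.00069). AT1G14120 gave 26.1 and 26.0 units at 6 h and 1.37 and 0.854 in darkness, so both groups lay near the floor. With dim values raised to 20 it was at least 1.30-fold higher, and its limma adjusted p was then 0.572.

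Not called at 6 h were AT2G47780 (-1.19 ± 0.40, limma adjusted p = 0.0609), AT1G67750 (1.25 ± 0.44, adjusted p = 0.072) and IAA34 (1.23 ± 0.50, adjusted p = 0.126). The other uncalled genes, which included AT4G29270, AT5G19100, AT3G48460, GSTU26, AT1G75710 and AT2G20780, had changes between -1.07 and 0.71. With 2 arrays a group, the median SE of a change was 0.42. Falls of 1, 2, 3 and 4 on the log2 scale were also simulated from these arrays. They were recovered for 2%, 52%, 66% and 84% of changed probe sets. Only 50 of 18237 simulated probe sets had each size of fall, against 1409 called lower and 1420 higher in the real comparison. Adjusted p-values are stricter when fewer probe sets change, so these shares cannot be carried over to the real comparison. An uncalled gene may still have changed.

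**Figure D2:**
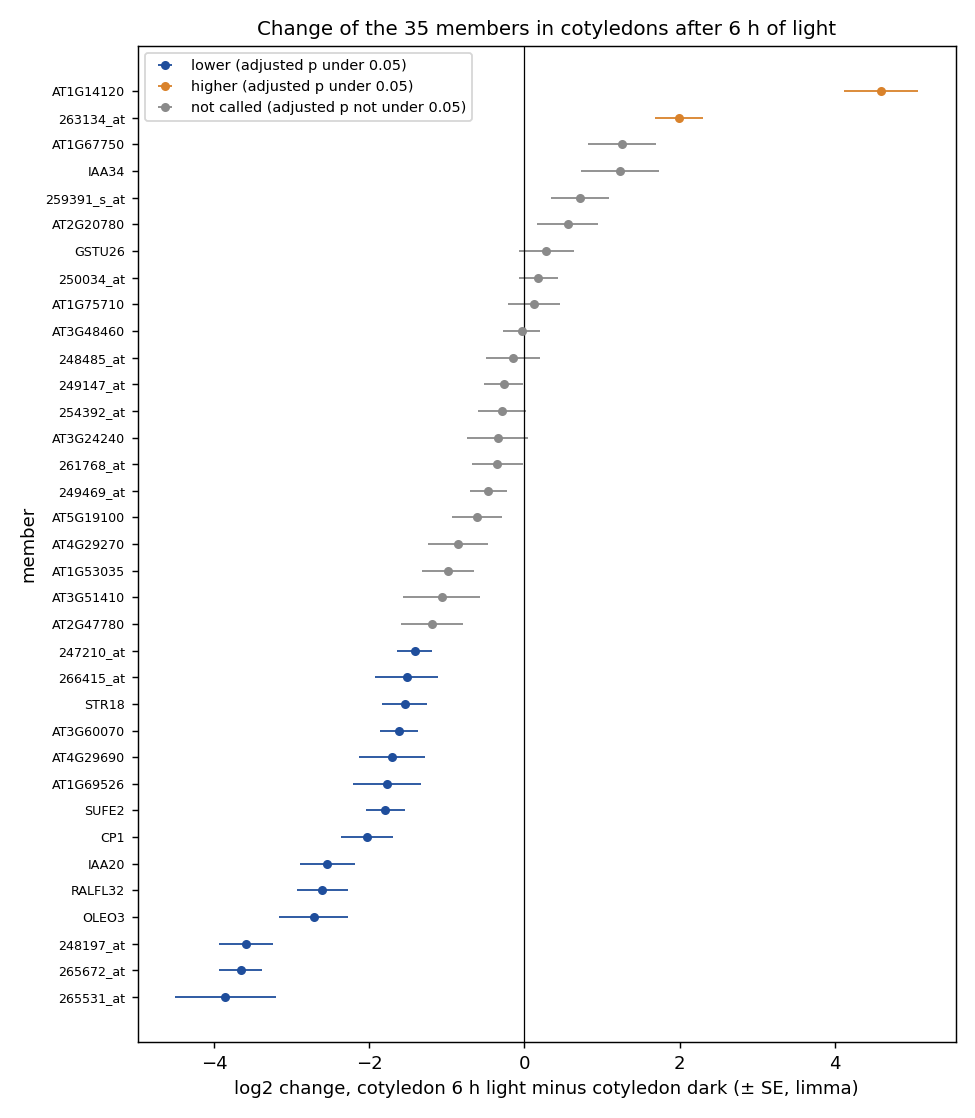
Change of each of the 35 genes in cotyledons, 6 h of light minus darkness, on the log2 scale, with bars of ± 1 SE from limma (2 arrays per group). Blue marks the 14 called lower, orange the 2 called higher and grey the 19 not called at an adjusted p under 0.05. The value of AT1G14120 at the top, 4.59, rests on dark signals near 1 unit.

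After 1 h of light the median cotyledon change was -0.13 on the log2 scale for the 35 genes and -0.12 for all tested ones. By limma 2 of the 35 genes were lower than in darkness and 1 was higher, against 0.674% and 1.51% of all tested probe sets. CP1 gave 230 and 344 units at 1 h against 657 and 1282 in dark cotyledons, a change of -1.71 ± 0.34 (limma adjusted p = 0.0134). That call was lost with dim signals raised to 20 (adjusted p = 0.104), with median centring (0.0594), without the variance trend (0.123), without dark replicate 2 (0.155) and without 1 h replicate 1 (0.137). Probe set 265672_at gave 137 and 221 units at 1 h against 872 and 876 in darkness, a change of -2.33 ± 0.28 (limma adjusted p = 0.00028). AT1G14120 was the gene called higher, again only from dim signals, at 31.9 and 19.2 units against 1.37 and 0.854. RALFL32 was at -1.35 ± 0.33 with a limma adjusted p of 0.0544. AT1G53035 (-1.31 ± 0.33, limma adjusted p = 0.0672) and AT3G51410 (-1.80 ± 0.49, 0.0918) were also lower without a call, the latter at dim signals. The largest uncalled rise was 0.79.

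Set against 1 h, the 6 h cotyledons had 14 of the 35 genes lower and 2 higher by limma, against 5.17% and 5.21% of all tested probe sets. The share over bright probe sets, which are called more often, was not taken here or for 1 h against darkness. The 6 h arrays are shared with the comparison of 6 h with darkness. OLEO3 was called lower (-2.54 ± 0.44, adjusted p = 0.00262). AT2G47780 was called too (-1.43 ± 0.40, adjusted p = 0.0363), but lost its call with dim signals raised (adjusted p = 0.136), without the variance trend (0.141), and without 1 h replicate 1 (0.292), 6 h replicate 1 (0.216) or 6 h replicate 2 (0.0858). CP1 was not (-0.32 ± 0.34, adjusted p = 0.642), its low level being reached at 1 h. SUFE2 had a change of -1.95 ± 0.25 (limma adjusted p = 0.000315) and IAA20 one of -1.62 ± 0.35 (adjusted p = 0.0107), both lower. The IAA20 call was lost without 1 h replicate 1 (limma adjusted p = 0.121) or 6 h replicate 2 (0.0788). The genes called higher were 263134_at (1.22 ± 0.31) and IAA34 (2.72 ± 0.50). The 263134_at call was lost with median centring (limma adjusted p = 0.0570), dim signals raised (0.0741) and no variance trend (0.100), and without 1 h replicate 1 (0.264), 6 h replicate 1 (0.0717) or 6 h replicate 2 (0.151). IAA34 was at least 1.13-fold higher once values under 20 were raised, with a limma adjusted p of 0.776.

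The 2 tissues can be set side by side at 6 h. Of the 16 genes with both 6 h apex arrays below both dark ones, 9 were called lower in cotyledons and 0 higher. Among the bright probe sets (at least 40 units on all earlier apex arrays) with the same apex pattern, 29.0% were called lower and 2.18% higher. Of the 11 whose apex arrays overlapped, 4 were called lower and 0 higher, against 7.32% and 6.19% of such bright probe sets. Of the 8 above darkness in the apex, 1 was called lower and 2 higher, against 1.74% and 26.7%. Calls in cotyledons thus followed the apex pattern across bright probe sets in general. Within each apex pattern a larger share of the 35 genes than of the bright probe sets was called lower, on small counts. No pattern had a larger share called higher, and these differences were not tested. Both light arrays lay above both dark arrays in 1 tissue and below them in the other for 2 of the 35 genes at 1 h (CP1 and 247210_at) and 2 at 6 h (CP1 and AT1G67750), against 8.66% and 7.63% of the bright probe sets. The 9 genes below darkness in the apex and called lower in cotyledons were OLEO3, IAA20, SUFE2, STR18, AT3G60070, AT1G69526, 247210_at, 248197_at and 265672_at. RALFL32 was lower in lit cotyledons while its apex values at 6 h (-0.05 relative to darkness) overlapped those in darkness.

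**Figure D3:**
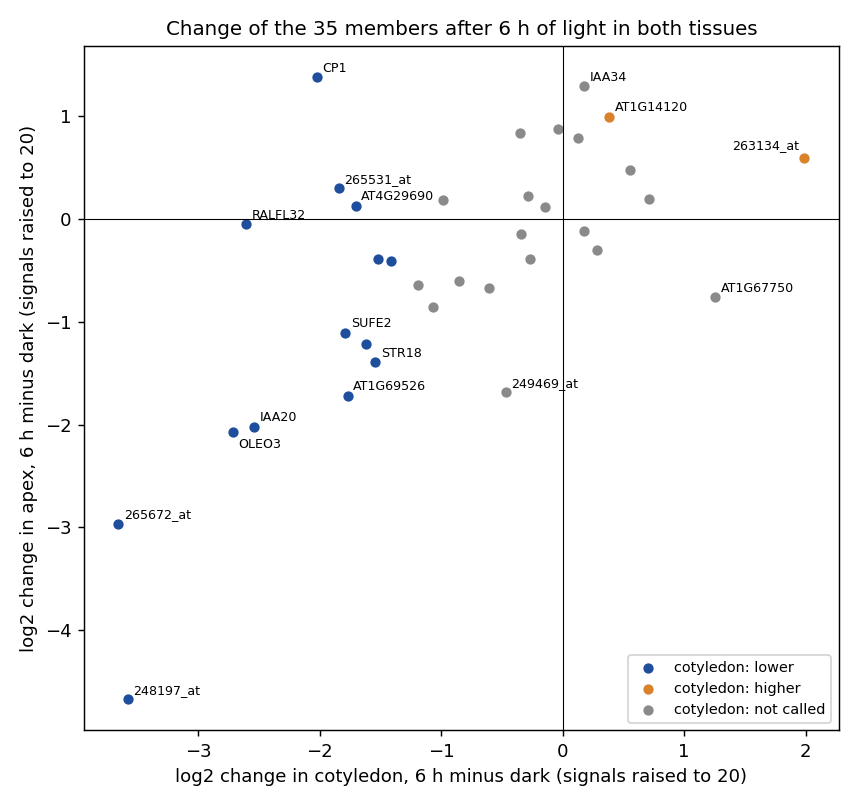
Change at 6 h of light minus darkness for the 35 genes, in cotyledons (horizontal axis) and in the apex (vertical axis), as log2 of signals raised to at least 20 units and averaged over 2 arrays per group. Colours give the limma call in cotyledons; the apex values are not tested. OLEO3 and IAA20 lie low on both axes, whereas CP1 lies at -2.03 in cotyledons and 1.38 in the apex.

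Pathways linked to dark growth were followed through 10 gene lists with 154 genes. The annotation used named 28 of them as the only gene of a probe set, and 2 of these were among the 35 (OLEO3 and IAA20). It gave no gene name for 8730 of the 22746 probe sets, so listed genes without a match may still be on the array. The 13 unnamed probe sets of the 35 could not be placed on any list. Of the lipid mobilisation genes, ICL, AIM1 and SDP1 were measured and all 3 were lower in cotyledons at 6 h than in darkness by limma. ICL had 2187 and 2125 units at 6 h and 8523 and 8720 in dark cotyledons, and AIM1 and SDP1 had changes of -1.20 and -1.47. ICL encodes isocitrate lyase of the glyoxylate cycle, which turns stored oil into sugar. In the apex it did not meet the rule, since 806 and 1398 units at 6 h stood beside 58.0 at 24 h, 254 at 48 h and 858 at 72 h. Its late signal was lowest at 24 h and higher afterwards, unlike that of OLEO3.

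On the seed storage and LEA list, OLEO3 and the linker histone gene HIS1-3 were measured and both were called lower in cotyledons by limma. HIS1-3 gave 1.87 and 5.45 units at 6 h and 20.02 and 15.5 in dark cotyledons, all at or about the floor of 20, so its call rests on dim signals and no fold is given. In the apex HIS1-3 missed the rule by far, with 28.7 units at 24 h, 76.0 at 48 h and 353 at 72 h. All 3 measured sugar starvation genes (MCCA, MCCB and IVD) and 5 of 9 autophagy genes were lower in cotyledons at 6 h and 0 were higher. None of these 12 met the apex rule, and their median margins were -4.09 and -1.60 on the log2 scale, against -0.52 for all probe sets. A negative margin means that at least 1 late signal exceeded the lowest earlier one.

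Of the auxin list, IAA20 and HAT2 were measured and both were lower in cotyledons at 6 h. Of the genes set for darkness and shade, 1 of 3 was lower, PORB, a protochlorophyllide reductase, which came nearest to the rule with a margin of 0.47. Of 3 flavonoid genes 2 were higher in lit cotyledons and 0 lower, and of 2 gibberellin and brassinosteroid genes and 1 ethylene gene none was called. The annotation used named no gene of the abscisic acid list as the only gene of a probe set, so that list could not be followed. Among the RALF-like peptides, a family looked up after the values were seen, 11 probe sets were found. RALFL32 alone met the rule and was the 1 called lower in cotyledons at 6 h, while RALFL22, RALFL24, RALFL33 and RALFL34 were higher.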

How the data were processed

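Total RNA was hybridised to 16 one-colour arrays. The authors deposited linear MAS5 intensities, made with GCOS and MAS5 per the submitters' processing notes, with no versions given; each array had a 2% trimmed mean of 100.01. They hold no detection calls or depth, and the number of arrays limits precision.

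The rule and the floor of 20 units were applied to signals as deposited. The genes and lists were chosen with earlier results of these data known. Cotyledon contrasts were fitted to log2 signals with limma 3.58.1 in R 4.3.3 (10 group means, eBayes with trend, two-sided). Probe sets above their array's 35th percentile (12.43 to 18.58 units) on at least 2 of 16 arrays were tested, and the fit was tested on simulated data. The spread came from 6 groups of 2 arrays, and groups of 1 array were assumed to vary likewise. Genes named were, among those matched to 1 gene, the 15 widest gaps, the 15 brightest earlier means, those called in cotyledons, on a list or at the edge of the rule, and the extremes between 72 and 24 h and between dark tissues; this took in all 22. Unnamed probe sets and families by symbol were picked after their values were seen. Gene names came from the array annotation and the TAIR10.1 gene table. The planned promoter motif search was not run, as no promoter sequences were used here. Alternatives are given in the closing section.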

Additional observations from a re-analysis of the deposited data

Results flagged for a closer look

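Tissues went opposite ways for 3 genes, with both light arrays above both dark arrays in 1 tissue and below them in the other. The difference itself was not tested, and values are apex minus cotyledon changes on the log2 scale with signals raised to 20 units. For CP1 the difference was 2.80 at 1 h (apex 1.09, cotyledon -1.71) and 3.41 at 6 h (apex 1.38, cotyledon -2.03). For AT1G67750, the pectate lyase family gene, it was -2.02 at 6 h (apex -0.76, cotyledon 1.25), and its cotyledon change was not called by limma. For 247210_at it was 0.78 at 1 h (apex 0.57, cotyledon -0.21), and its cotyledon change of -0.21 ± 0.23 (SE) was not called by limma (adjusted p = 0.805). Among the 7838 probe sets with at least 40 units on all earlier apex arrays, 8.66% went opposite ways at 1 h and 7.63% at 6 h, against 2 of the 35 genes at each time. The share among the 35 was thus not larger at either time, and the pattern does not set them apart. No array of these comparisons was at the floor of 20 units. Groups of 1 or 2 arrays allow no check for outlying samples.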

How the results depend on the processing

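The number of probe sets that met the rule was 22 with a floor of 40 units, 7 with a margin of 2, and 35 to 108 with single apex arrays left out, the highest without apex 24 h. It was 61 without apex dark replicate 2 and apex 6 h replicate 2, an alternative chosen after seeing the data, as were the shares that follow. The share lower in cotyledons at 6 h was 40% for the 35 genes, 32.8% for those 61 and 25.9% for the 108, and 25.9% to 43.2% with single apex arrays left out. In cotyledons at 6 h against darkness, single arrays left out gave 751 to 1061 probe sets lower (1409 with all) and 770 to 1081 higher (1420 with all), and 11 to 14 of the 35 genes lower and 2 higher; with dim signals raised to 20, 1 was higher. At 1 h against darkness, single arrays left out gave 36 to 165 probe sets lower (123 with all), 166 to 270 higher (276 with all), 1 to 2 of the 35 genes lower and 1 to 2 higher. Without the variance trend it was 53 lower, 137 higher and 1 of the genes lower. With dim signals raised it was 178 higher, and 1 of the genes lower and 0 higher. With median centring 1 of the genes was lower. At 6 h against 1 h, single arrays left out gave 359 to 722 lower (942 with all), 330 to 932 higher (951 with all), 8 to 11 of the 35 genes lower (14 with all) and 1 to 4 higher (2 with all). Without the trend it was 476 lower and 471 higher, with 8 of the genes lower and 1 higher. Median centring gave 1141 lower and 588 higher, with 1 of the genes higher. With dim signals raised 0 of the genes were higher, and with cotyledon arrays alone 1. The 484 values of single genes under alternatives covered 44 changes, including changes of 1 or more that were not called in the main fit. Those uncalled changes had no call to lose. Among the 484 values, 62 lost their call, 5 gained one and 0 changed direction. Of the 16 genes called at 6 h against darkness, 12 were called under every alternative; 266415_at, AT4G29690, AT1G69526 and AT1G14120 were not. The report names the alternatives that ended the calls of CP1 at 1 h and of AT2G47780, IAA20 and 263134_at at 6 h against 1 h; RALFL32, STR18, 247210_at, 265672_at, 266415_at, AT4G29690, AT1G69526 and IAA34 also lost theirs at 6 h against 1 h under some. Fits with an array left out rest on fewer arrays and their estimates moved too, and the cause of the lost calls was not tested. Replicate numbers were treated as not pairing the samples, since the labels do not say whether they do. Correlations of replicate differences between 15 pairs of groups were -0.13 to 0.12, which does not settle whether same-numbered samples shared a batch. With the number as a replicate block, 1384 probe sets were higher and 1356 lower at 6 h against darkness, with 14 of the 35 genes lower and 2 higher, and 3 were lower and 1 higher at 1 h. The motif search was not run. Signals near 20 units limit the late folds, and each late time is 1 array.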
